A study of Mus musculus with 23 samples.

Results

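The genes examined here were the aryl hydrocarbon receptor *Ahr*, its partner *Arnt*, its repressor *Ahrr* and 4 genes that AHR is known to induce, *Cyp1a1*, *Cyp1a2*, *Cyp1b1* and *Tiparp*. They were taken as every probe that the array annotation names by one of these 7 symbols, which gave 11 of the 56605 non-control probes and 7 of the 24813 named genes. RNA came from the whole ileum of male mice and was measured on 23 single-colour Agilent arrays, 1 array per mouse. The 4 groups were WT CONT (n = 6), WT PCN (n = 5), Pxr-/- CONT (n = 6) and Pxr-/- PCN (n = 6). Mice had been allocated as 6 to each group, and a sixth WT PCN ileum was not analysed here. WT animals were C57BL/6J mice bought when 6 weeks old, whereas Pxr-/- animals, which lack the pregnane X receptor (PXR) and were backcrossed to the same strain, came from a colony kept in house over 10 years, so that genotype and origin of the mice cannot be told apart. All mice had 2 weeks of acclimatization. PCN groups received 100 mg/kg of PCN, a steroid ligand of rodent PXR, by intraperitoneal injection once a day for 4 days, and CONT groups received its vehicle, corn oil. Every mouse had free access to food and was killed at ZT6 (6 h into the light phase), 6 h after the last injection. The authors describe mice at this time of day as semi-fasted.

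AHR is a ligand-activated transcription factor that is held in the cytosol by HSP90 and its co-chaperones. After binding a planar aromatic ligand, a dietary indole or a tryptophan metabolite, it enters the nucleus, pairs with ARNT and binds xenobiotic response elements upstream of its targets. The targets include the CYP1 monooxygenases, which clear AHR ligands, and *Ahrr* and *Tiparp*, whose products dampen the receptor. In the gut AHR is known for linking dietary and microbial ligands to epithelial defence and to the maintenance of group 3 innate lymphoid cells and intraepithelial lymphocytes. PXR, the receptor of PCN, is a second sensor of foreign compounds, and the design shows whether PCN moved the AHR axis with or without PXR.

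Levels are given as the log2 of the median spot signal after quantile normalisation, a scale on which 1 unit is a doubling, and compare arrays within a probe but not probes with each other. A probe counted as detected on an array where the scanner software called it well above its background. Probes detected on at least 50% of the arrays of a group were tested with limma, and a probe was called when its Benjamini-Hochberg adjusted p was at most 0.05 and its fold change was above 1.5. Between 60.9% and 67.3% of probes were detected per array, and the correlation between any pair of arrays lay between 0.983 and 0.995. The ileal markers *Slc10a2*, *Fabp6*, *Slc51a* and *Slc51b* were detected on 23 of 23 arrays. The only probe of *Nr1i2*, the gene deleted in Pxr-/- mice, was also detected on 23 of 23 arrays and was lower in Pxr-/- mice by 0.41 ± 0.15 (log2 difference ± SE, adjusted p = 0.336) without PCN, so it did not separate the genotypes at the threshold, and whether it lies in the deleted part was not analysed here.

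Because AHR acts through a short DNA word, the sequence just upstream of 3 targets is shown: *Cyp1b1* and *Ahrr*, the members with the largest PCN differences, and *Cyp1a1*, the classical target. Each line holds the 250 bases before the RefSeq start (GRCm38.p6, read on the strand of the gene, 5′ to 3′), and capitals mark the xenobiotic response element core GCGTG or its reverse complement CACGC. The windows are chr17:79715062-79715311 (minus strand) for *Cyp1b1*, chr13:74292332-74292581 (minus strand) for *Ahrr* and chr9:57697363-57697612 (plus strand) for *Cyp1a1*.

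Cyp1b1: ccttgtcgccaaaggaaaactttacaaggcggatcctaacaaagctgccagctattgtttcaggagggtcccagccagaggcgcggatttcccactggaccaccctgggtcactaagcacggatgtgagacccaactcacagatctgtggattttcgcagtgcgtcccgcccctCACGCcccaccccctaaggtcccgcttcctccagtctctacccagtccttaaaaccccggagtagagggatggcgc

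Ahrr: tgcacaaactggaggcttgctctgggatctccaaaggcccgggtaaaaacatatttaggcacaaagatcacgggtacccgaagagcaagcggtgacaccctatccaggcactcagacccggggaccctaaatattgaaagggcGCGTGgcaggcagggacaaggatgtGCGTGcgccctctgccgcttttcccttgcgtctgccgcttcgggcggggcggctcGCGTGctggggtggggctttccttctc

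Cyp1a1: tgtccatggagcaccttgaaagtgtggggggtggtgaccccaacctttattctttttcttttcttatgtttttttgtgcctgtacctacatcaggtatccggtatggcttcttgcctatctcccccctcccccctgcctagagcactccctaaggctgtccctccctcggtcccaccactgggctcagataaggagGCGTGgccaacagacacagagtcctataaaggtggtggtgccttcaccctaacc

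The core was found 3 times upstream of *Ahrr* and 1 time each upstream of *Cyp1b1*, *Cyp1a1*, *Arnt* and *Tiparp*, and was not found in the window of *Cyp1a2*. A core is present in this window of 28.2% of 32851 RefSeq starts. The longer word TNGCGTG, which contains the core, was matched 1 time upstream of *Ahrr*, 29 to 23 bases before the start, and in no other of the 6 members with a window, against 4.1% of all windows. These matches are descriptions of the sequence only.

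Of the 7 genes, 5 were measured in every group. Their 7 probes, 1 each for *Ahr*, *Ahrr*, *Cyp1b1* and *Tiparp* and 3 for *Arnt*, were detected on 23 of 23 arrays and were tested among 37591 probes. *Cyp1a1*, *Cyp1a2* and 1 further probe each of *Ahr* and *Ahrr* stayed at background and were not tested. No member was called in any of the 5 contrasts. The share of all tested probes that was called was 0.689% for PCN in WT, 0.939% for PCN in Pxr-/-, 0.0771% for the interaction of genotype and PCN, 0.141% for genotype without PCN and 0.364% for genotype with PCN. With the adjusted p alone, 2 of the 7 member probes, those of *Cyp1b1* and *Ahr*, passed for PCN in Pxr-/-, where 3.57% of tested probes did. No member probe passed for PCN in WT (1.29% of probes), the interaction (0.0825%) or genotype without (0.215%) and with PCN (0.622%). At an unadjusted p of at most 0.05, 2 of the 7 member probes passed for PCN in WT (11.8% of all probes), 3 for PCN in Pxr-/- (19.5%), 1 for the interaction (4.49%), 1 for genotype without PCN (8.88%) and 0 for genotype with PCN (7.07%).

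**Figure D1:**
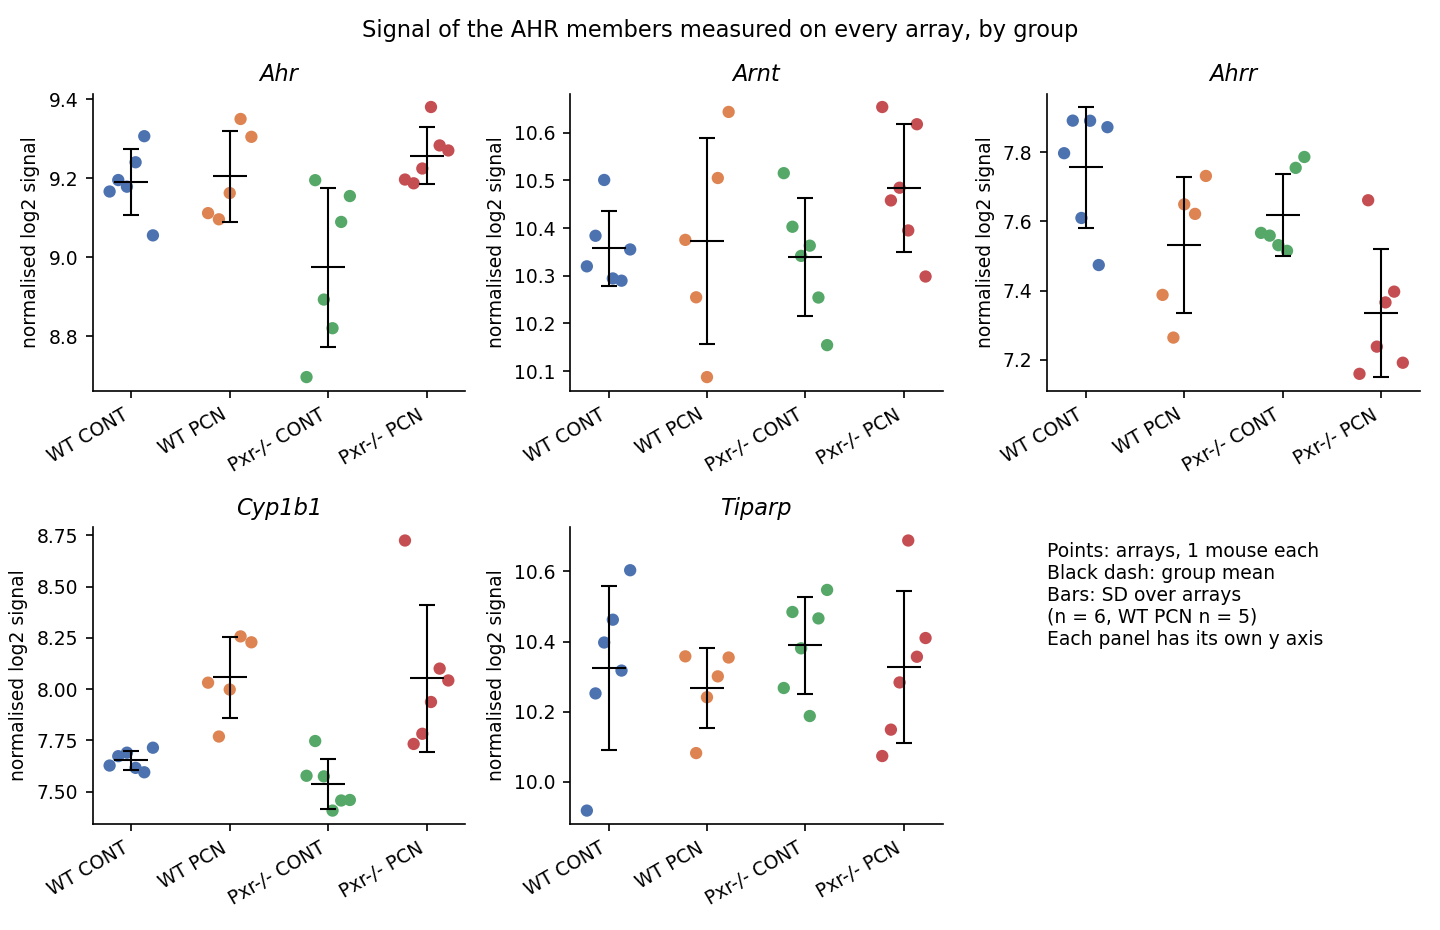
Normalised log2 signal of the 5 AHR members measured on every array (y axis, own range in each panel) in the 4 groups (x axis); points are arrays of 1 mouse each, dashes group means and bars SD. *Cyp1b1* lay above every WT CONT array on all 5 WT PCN arrays, and the highest point is a Pxr-/- PCN array at 8.72.

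*Cyp1b1* encodes the CYP1 enzyme that is typical of extrahepatic and mesenchymal cells, and it was the member with the largest PCN difference in both genotypes. Its probe A_51_P255456 lies at chr17:80106547-80106606 (mm9, the build of the array annotation). In WT CONT it read 7.59 at the lowest, 7.65 at the median and 7.71 at the highest. The 5 WT PCN arrays read 8.03, 7.77, 7.998, 8.26 and 8.23. All 5 therefore lay above all 6 controls, a separation upwards that 1.3% of the probes compared showed for PCN in WT. The fitted difference was 0.40 ± 0.13 (SE, 1.32-fold, 95% confidence interval 0.13 to 0.67), with an adjusted p of 0.154 by limma, so it did not pass.

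In Pxr-/- CONT *Cyp1b1* read 7.41, 7.52 and 7.75 (lowest, median, highest), and in Pxr-/- PCN it read 7.73, 7.99 and 8.72. Of the 6 PCN arrays, 5 lay above every control, and the groups overlapped by 1 array each. The difference was 0.52 ± 0.12 (1.43-fold, 0.26 to 0.77, limma adjusted p = 0.0216), which passed the adjusted p but not the fold of 1.5. Replicate 1 of Pxr-/- PCN carried the highest *Cyp1b1* value of all arrays. Without it the difference in Pxr-/- was 0.38 (limma adjusted p = 0.0312), and the difference in WT, 0.41, had an adjusted p of 0.0194. This array is not part of the WT comparison, but the fit estimates the spread from all groups together. *Cyp1b1* in WT passed the adjusted p in only 1 of 23 fits that each left out 1 array (up to 0.309). It passed in 0 of 13 other settings. The increments in WT and Pxr-/- did not differ beyond their error: the interaction was 0.12 with a 95% confidence interval of -0.25 to 0.48 (limma adjusted p = 0.999). Averaged over the genotypes, a contrast added after the data had been seen, *Cyp1b1* was higher with PCN by 0.46 ± 0.088 (limma adjusted p = 0.00248), where 8.9% of all probes passed the adjusted p. In that contrast 0 members were called with the fold threshold, against 0.931% of all probes.

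The arrays were washed in 2 batches, and each batch held all 4 groups. Within batch 1 the *Cyp1b1* difference for PCN was 0.45 in WT (n = 2 and 3) and 0.37 in Pxr-/- (n = 3 and 3), and within batch 2 it was 0.38 in WT and 0.67 in Pxr-/-. The direction was thus the same in both batches and both genotypes. The table that the authors deposited, normalised by CrossNorm, gave *Cyp1b1* means of 7.66 (WT CONT), 8.05 (WT PCN), 7.54 (Pxr-/- CONT) and 8.06 (Pxr-/- PCN).

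*Ahrr*, the AHR repressor that competes for ARNT and for the response element, differed with PCN in the opposite direction to *Cyp1b1*. Its detected probe A_51_P254425 lies at chr13:74348566-74348612 (mm9). It read 7.47, 7.83 and 7.89 (lowest, median, highest) in WT CONT and 7.39, 7.26, 7.65, 7.62 and 7.73 in the 5 WT PCN arrays, 2 of which lay below every control. In Pxr-/- it read 7.52, 7.56 and 7.79 without and 7.16, 7.30 and 7.66 with PCN, so 5 of 6 PCN arrays lay below all controls while 1 lay among them. The differences were -0.22 ± 0.10 in WT (1.16-fold lower, limma adjusted p = 0.404) and -0.28 ± 0.097 in Pxr-/- (1.22-fold lower, limma adjusted p = 0.104). Neither passed. The interaction was -0.065, with an interval of -0.36 to 0.23. Averaged over the genotypes the difference was -0.25 ± 0.070 (limma adjusted p = 0.0293), and this p was between 0.0134 and 0.0593 when single arrays were left out and at most 0.05 in 18 of 23 such fits. It was above 0.05 without WT CONT replicate 2 or 4, WT PCN replicate 2, Pxr-/- CONT replicate 6 or Pxr-/- PCN replicate 1.

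**Figure D2:**
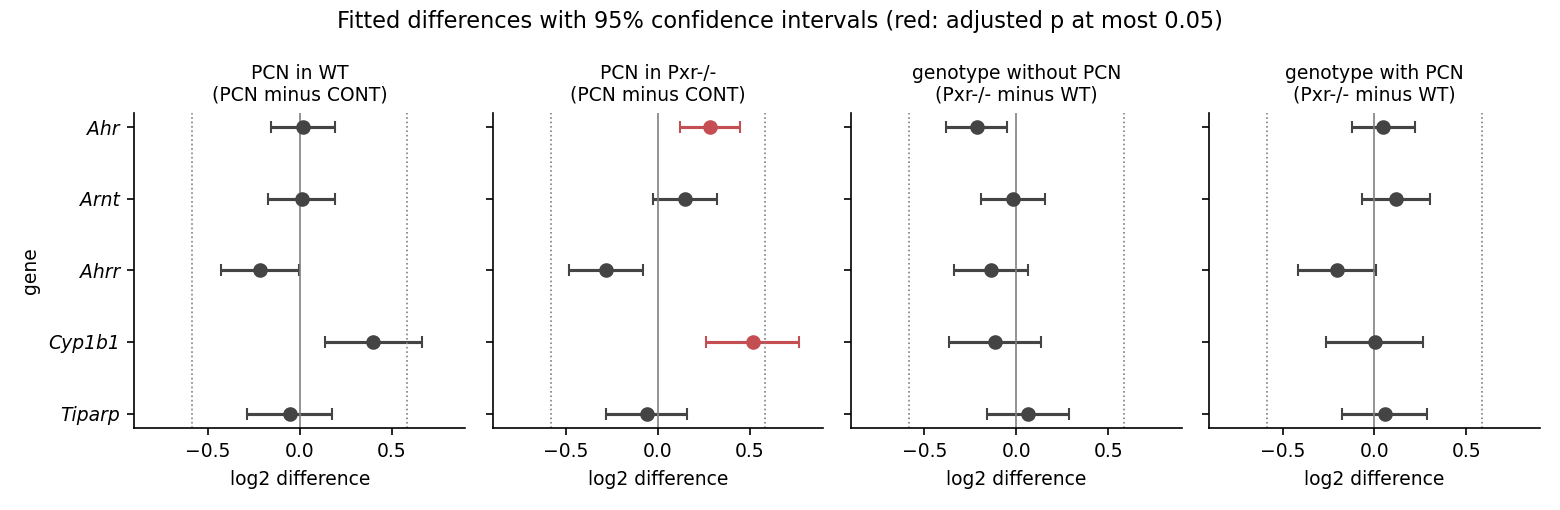
Fitted log2 differences (x axis) of the 5 measured AHR members (y axis) for PCN in each genotype and for genotype in each treatment, with 95% confidence intervals; dotted lines mark a 1.5-fold change and red marks an adjusted p of at most 0.05. The 2 red points are *Cyp1b1* (0.52) and *Ahr* (0.28) for PCN in Pxr-/-, and both lie inside the dotted lines.

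*Ahr* itself, the ligand-binding receptor, was measured by probe A_55_P2109613 (chr12:36182724-36182783, mm9). It read 9.06, 9.19 and 9.31 (lowest, median, highest) in WT CONT and 9.11, 9.10, 9.16, 9.35 and 9.31 in the 5 WT PCN arrays, and these groups overlapped. The difference was 0.018 ± 0.083, with an interval of -0.15 to 0.19. In Pxr-/- CONT it read 8.70, 8.99 and 9.20, the widest spread of the 4 groups (SD 0.20), and in Pxr-/- PCN 9.19, 9.25 and 9.38. There 5 of 6 PCN arrays lay above all controls, and the difference was 0.28 ± 0.079 (1.22-fold, limma adjusted p = 0.0491). That adjusted p sat at the threshold: it was at most 0.05 in 3 of 23 fits that each left out 1 array, with a range from 0.0305 to 0.113.

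Between genotypes, *Ahr* without PCN was lower in Pxr-/- by 0.22 (-0.22 ± 0.079, limma adjusted p = 0.367), and 3 of the 6 Pxr-/- CONT arrays lay below every WT CONT array. With PCN the genotypes differed by 0.049 ± 0.083, which did not pass. The interaction of 0.26 ± 0.11 had an unadjusted p of 0.031 and an adjusted p of 0.999, so a different response of *Ahr* in the 2 genotypes was not shown.

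*Arnt*, the partner that AHR shares with the hypoxia-inducible factors, showed no difference beyond its spread. Its brightest probe A_55_P2100895 (chr3:95301081-95301140, mm9) read 10.29, 10.34 and 10.50 in WT CONT (lowest, median, highest) and 10.38, 10.25, 10.09, 10.51 and 10.64 in WT PCN. In Pxr-/- the readings were 10.15, 10.35 and 10.52 without PCN and 10.30, 10.47 and 10.65 with it. The PCN difference was 0.0099 ± 0.088 in WT and 0.15 ± 0.084 in Pxr-/- (limma adjusted p = 0.985 and 0.348). The probes A_55_P2735190 and A_55_P2814820 gave 0.056 and -0.0084 in WT and 0.15 and 0.035 in Pxr-/-. All 3 probes agreed that no *Arnt* difference passed.

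*Tiparp*, a mono-ADP-ribosyltransferase that marks AHR for degradation, showed no PCN difference beyond its spread either. Its probe A_51_P514961 (chr3:65358749-65358808, mm9) read 9.92, 10.36 and 10.60 in WT CONT and 10.36, 10.08, 10.24, 10.30 and 10.35 in the WT PCN arrays. In Pxr-/- it read 10.19, 10.42 and 10.55 without and 10.07, 10.32 and 10.69 with PCN. The PCN differences were -0.054 ± 0.11 (-0.29 to 0.18) in WT and -0.062 ± 0.11 (-0.28 to 0.16) in Pxr-/-. The intervals exclude a change of 1.5-fold in either direction.

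*Cyp1a1*, the most inducible AHR target in intestinal epithelium, was at background. Its probe A_51_P279693 (chr9:57551535-57551594, mm9) was detected on 1 of 23 arrays, WT PCN replicate 5, with a median signal of 54.5 in scanner units. The other 4 WT PCN arrays read between 30.5 and 37, WT CONT between 26 and 38, Pxr-/- CONT between 29.5 and 36 and Pxr-/- PCN between 29 and 37. Over the arrays, the dimmest probe that counted as detected read between 28 and 42. *Cyp1a2*, the mainly hepatic CYP1 enzyme, was detected on 0 of 23 arrays (probe A_52_P595871, chr9:57528060-57528119, mm9), with signals from 21.5 to 30.5. No fold change is given for either gene, since both sides of each comparison were not well above background.

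A further probe of *Ahr* and of *Ahrr* was dim. The second *Ahr* probe, A_55_P2719822 (chr12:36199083-36199142, mm9), is annotated to a separate Ensembl transcript and was detected on 4 arrays, namely 1 array each of the PCN groups and 2 of the Pxr-/- CONT arrays, with signals from 31.5 to 51 over all arrays. The second *Ahrr* probe, A_55_P2128388 (chr13:74350685-74350744, mm9), was detected on 0 of 23 arrays with signals from 31.5 to 49. The *Ahr* and *Ahrr* results above thus rest on 1 probe each.

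**Figure D3:**
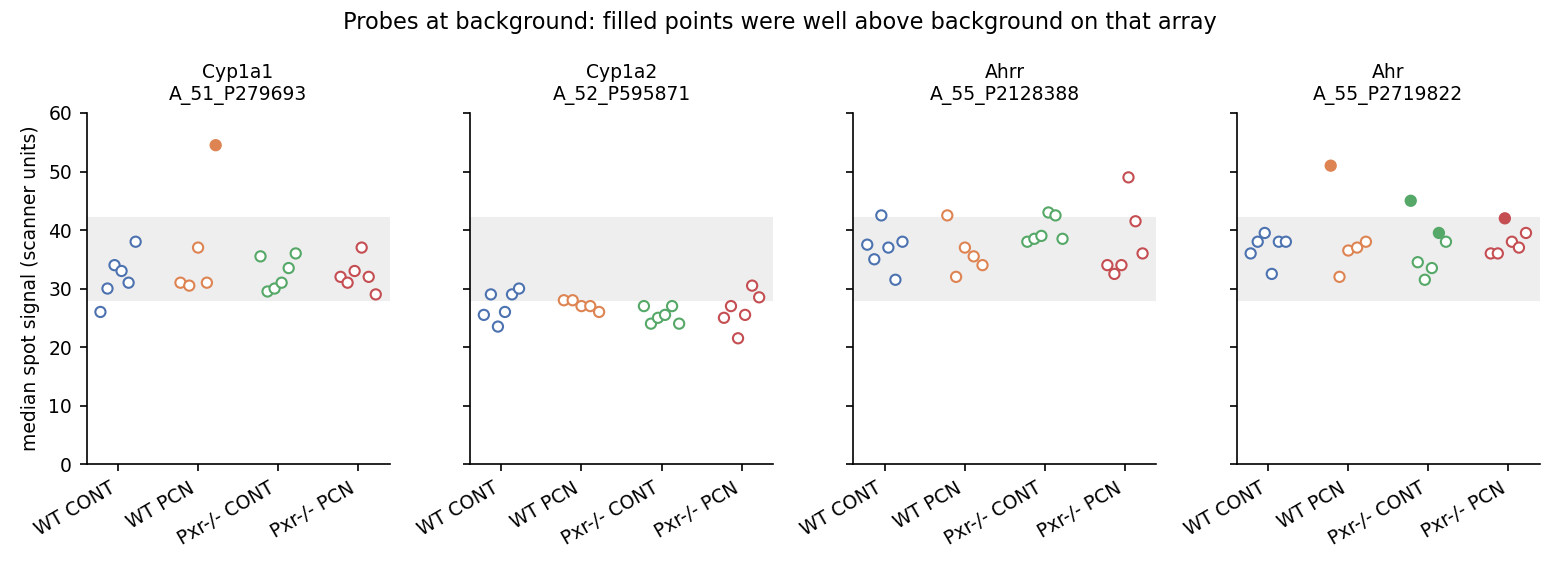
Median spot signal in scanner units (y axis, from 0) of the 4 AHR member probes at background, by group (x axis); each point is an array, filled where the probe was detected, and the grey band spans 28 to 42, the range over arrays of the dimmest detected signal. *Cyp1a1* has a single filled point, WT PCN replicate 5 at 54.5, and *Cyp1a2* has none.

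The order of the group means was compared between neighbours by exact permutation tests, 3 for each of the 5 measured genes. The neighbours were set by the same observed means, and wash batch was not taken into account. For *Cyp1b1* and *Ahrr* no step compared PCN with CONT within a genotype, so these steps do not test the PCN difference of either gene. *Cyp1b1* ran from WT PCN (8.06 ± 0.20, SD, n = 5) and Pxr-/- PCN (8.05 ± 0.36, n = 6) to WT CONT (7.65 ± 0.047, n = 6) and Pxr-/- CONT (7.54 ± 0.12, n = 6). The step from Pxr-/- PCN to WT CONT, which crosses genotype and treatment, was 0.40 (two-sided exact permutation p = 0.00216, the smallest that 6 against 6 arrays allow; 0.0325 after adjustment over the 15 steps). *Ahrr* ran from WT CONT (7.76 ± 0.17) over Pxr-/- CONT (7.62 ± 0.12) and WT PCN (7.53 ± 0.20) to Pxr-/- PCN (7.34 ± 0.19). *Ahr* ran from Pxr-/- PCN (9.26 ± 0.072) over WT PCN (9.21 ± 0.12) and WT CONT (9.19 ± 0.084) to Pxr-/- CONT (8.97 ± 0.20). None of the other 14 steps passed, and the next smallest was the step of *Ahr* from WT CONT to Pxr-/- CONT (exact permutation p = 0.0411, adjusted 0.308).

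Genotype differences without PCN were small for the other members. *Cyp1b1* was -0.12 ± 0.12, *Ahrr* -0.14 ± 0.097, *Arnt* -0.019 ± 0.084 and *Tiparp* 0.064 ± 0.11 in Pxr-/- relative to WT, with limma adjusted p from 0.762 to 0.982. With PCN, *Ahrr* differed most, by -0.20 ± 0.10 (limma adjusted p = 0.74), and *Cyp1b1* by 0.00054 ± 0.13. These differences carry the origin of the mice along with the genotype.

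The genes whose signal followed that of a member most closely over the 23 arrays were listed for each, as a description, after subtracting the mean of each wash batch but not that of the groups. *Cyp1b1* was followed by *Glb1* (lysosomal beta-galactosidase, Pearson r = 0.89), *Matn4* (an extracellular matrix protein, 0.87) and *Scarb1* (the HDL receptor, 0.84). *Scarb1* was higher with PCN by 0.51 in Pxr-/- (limma adjusted p = 0.00101) and by 0.32 in WT (0.0538), and *Glb1* by 0.39 (0.0286) and 0.26 (0.286). *Ahr* was followed by *Antxr1* (0.85), *F2r* (0.83) and *Npl* (0.82), *Ahrr* by *Mapre1* (0.78), *Cldn8* (0.71) and *Leo1* (0.70), *Arnt* by *Dctn4*, *Csnk1g1* and *Luc7l2* (0.82 to 0.86) and *Tiparp* by *Snx19*, *Tank* and *Tmbim4* (0.80 to 0.83). By rank, the Spearman correlation of *Cyp1b1* was 0.85 with *Glb1*, 0.71 with *Matn4* and 0.80 with *Scarb1*. All of these pairs share the arrays and the group differences, and the genes named are the 3 closest to each member among 17722 genes.

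Markers of several cell types of the ileal wall were also higher with PCN, and in bulk tissue more cells of a type cannot be told apart from more RNA per cell. Over all 17727 tested genes, 7776 were higher with PCN in WT and 8884 in Pxr-/-, and 0.931% and 1.2% were called higher. Of the 6 fibroblast markers, 6 were higher with PCN in both genotypes, and 1 (*Lum*) was called in WT and 3 in Pxr-/-. Their summed signal spanned 15.43 to 15.75 in WT CONT, 15.30 to 16.49 in WT PCN, 15.05 to 15.88 in Pxr-/- CONT and 15.75 to 16.57 in Pxr-/- PCN. The 5 smooth muscle markers were all higher, with 0 called in WT and 2 in Pxr-/-, and spanned 17.26 to 17.56, 17.34 to 18.01, 17.23 to 17.75 and 17.51 to 18.40 in the same order of groups. The 4 macrophage markers were all higher, with 0 and 1 called, and spanned 13.16 to 13.48, 13.33 to 13.58, 13.01 to 13.52 and 13.42 to 13.71. Of the 4 neutrophil markers 2 were called higher in each genotype, with median differences of 1.11 in WT and 1.59 in Pxr-/-. Their summed signal, in which the brightest marker weighs most, spanned 15.22 to 15.60, 15.33 to 15.70, 15.14 to 15.64 and 15.40 to 15.63. The 4 ileal enterocyte markers had 0 called and a median difference of -0.078 in WT and -0.11 in Pxr-/-. No marker of epithelium, endothelium, T cells, B cells, group 3 innate lymphoid cells, hepatocytes or the proximal small intestine was called with PCN. The 4 epithelium markers were all lower, with medians of -0.15 in WT and -0.10 in Pxr-/-. Of the 4 B cell markers, 4 were higher in WT (median 1.33) and 3 in Pxr-/- (0.53), and their sum spanned 10.75 to 13.42 in WT PCN. Of the 4 endothelium markers 4 and 3 were higher, and of the 4 T cell markers 1 in each genotype.

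The fibroblast sum and *Cyp1b1* are given side by side for every PCN array. On Pxr-/- PCN replicates 1 to 6 the fibroblast sum was 15.93, 15.75, 15.95, 16.07, 16.43 and 16.57, and *Cyp1b1* was 8.72, 7.73, 7.78, 7.94, 8.10 and 8.04. Replicates 5 and 6 had the highest fibroblast sums, replicate 1 had the highest *Cyp1b1*, and replicate 2 was lowest in both. On WT PCN replicates 1 to 5 the fibroblast sum was 15.91, 15.67, 15.30, 16.49 and 15.73, and *Cyp1b1* was 8.03, 7.77, 7.998, 8.26 and 8.23. Replicate 4 was highest in both, while replicate 3 had the lowest fibroblast sum and replicate 2 the lowest *Cyp1b1*. In Pxr-/- CONT, replicate 4 was lowest in both (15.05 and 7.41), but replicate 5 had the highest sum (15.88) with *Cyp1b1* at 7.46. In WT CONT the fibroblast sum spanned 15.43 to 15.75 and *Cyp1b1* 7.59 to 7.71. There replicate 4, with the highest sum, had *Cyp1b1* at 7.62, and replicate 3, with the lowest sum, had it at 7.69. The part of these cell types in the *Cyp1b1* difference was not tested.

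**Figure D4:**
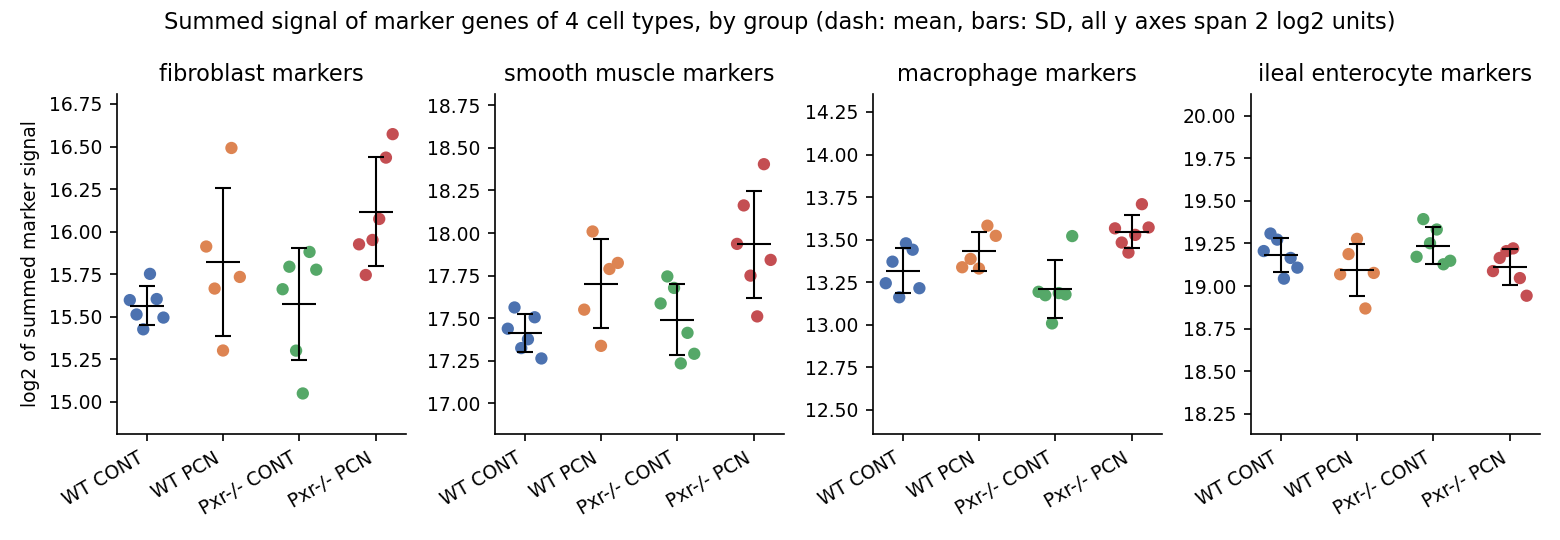
Log2 of the summed normalised signal (y axes, each spanning 2 log2 units) of fibroblast, smooth muscle, macrophage and ileal enterocyte markers in the 4 groups (x axes); points are arrays, dashes means and bars SD. The fibroblast sum averaged 16.12 in Pxr-/- PCN against 15.58 in Pxr-/- CONT, and the enterocyte sum 19.11 against 19.24.

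The wider AHR pathway was followed through 4 gene lists, the chaperones and partners of the AHR-ARNT complex, other AHR battery genes, the enzymes of tryptophan and kynurenine metabolism that make or remove AHR ligands, and gut lymphoid genes tied to AHR. Of 50 listed genes 46 were tested. PCN in WT called 0 genes in each list, where 0.931% of all 17727 tested genes were called higher and 0.118% lower. PCN in Pxr-/- called 1 gene, *Il1r1* of the gut lymphoid list, against 1.2% higher and 0.276% lower over all genes. The cell type behind its signal was not tested. The genotype contrasts and the interaction called 0.

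Among the 13 tested complex members and partners, 8 were higher and 5 lower with PCN in WT, with a median of 0.058 (all tested genes -0.021), and in Pxr-/- the split was the same with a median of 0.089 (all tested genes 0.00045). The chaperone gene *Hsp90aa1*, which keeps AHR in a ligand-binding state, was at -0.27 ± 0.14 in WT and -0.39 ± 0.14 in Pxr-/- (limma adjusted p = 0.485 and 0.114). *Epas1*, a hypoxia-inducible factor that also pairs with ARNT, was at 0.21 ± 0.092 and 0.30 ± 0.087 (0.369 and 0.0572).

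Of the 11 tested battery genes, 7 were higher in WT (median 0.049) and 6 in Pxr-/- (median 0.064), and 1 in each genotype passed the adjusted p without the fold. Over all 17727 tested genes, 256 higher and 71 lower genes passed the adjusted p in WT, and 568 higher and 318 lower genes in Pxr-/-. In WT it was *Ugt1a6b*, a phenol glucuronosyltransferase, which read 14.02, 14.14 and 14.43 in WT CONT and 14.58, 14.69 and 15.02 in WT PCN (lowest, median, highest). The groups did not overlap, and the difference was 0.57 ± 0.10 (limma adjusted p = 0.00378), just under the fold threshold. In Pxr-/- the *Ugt1a6b* difference was 0.26 ± 0.098 (0.144), and under PCN it was lower in Pxr-/- than in WT by 0.44 (-0.44 ± 0.10, 0.0484), while the interaction, -0.31 ± 0.14, had an adjusted p of 0.999. The genotype difference of *Ugt1a6b* under PCN had an adjusted p of at most 0.05 in 4 of 23 fits that each left out 1 array (0.0153 to 0.156) and in 6 of 13 other settings. Probes of *Ugt1a6b* and its near-identical copy *Ugt1a6a* (0.29 ± 0.13 in WT, 0.359) may share target RNA. In Pxr-/- the gene that passed was *Scin*, an actin-severing protein, at 0.58 ± 0.098 (limma adjusted p = 0.00304), against -0.078 ± 0.10 in WT. The *Scin* interaction of 0.66 ± 0.14 had an adjusted p of 0.11. That adjusted p was at most 0.05 in 1 of 23 fits that each left out 1 array (0.023 to 0.234) and in 0 of 13 other settings. The fit that passed left out Pxr-/- CONT replicate 2 and gave a difference of 0.74. *Scin* was named after its values had been seen.

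**Figure D5:**
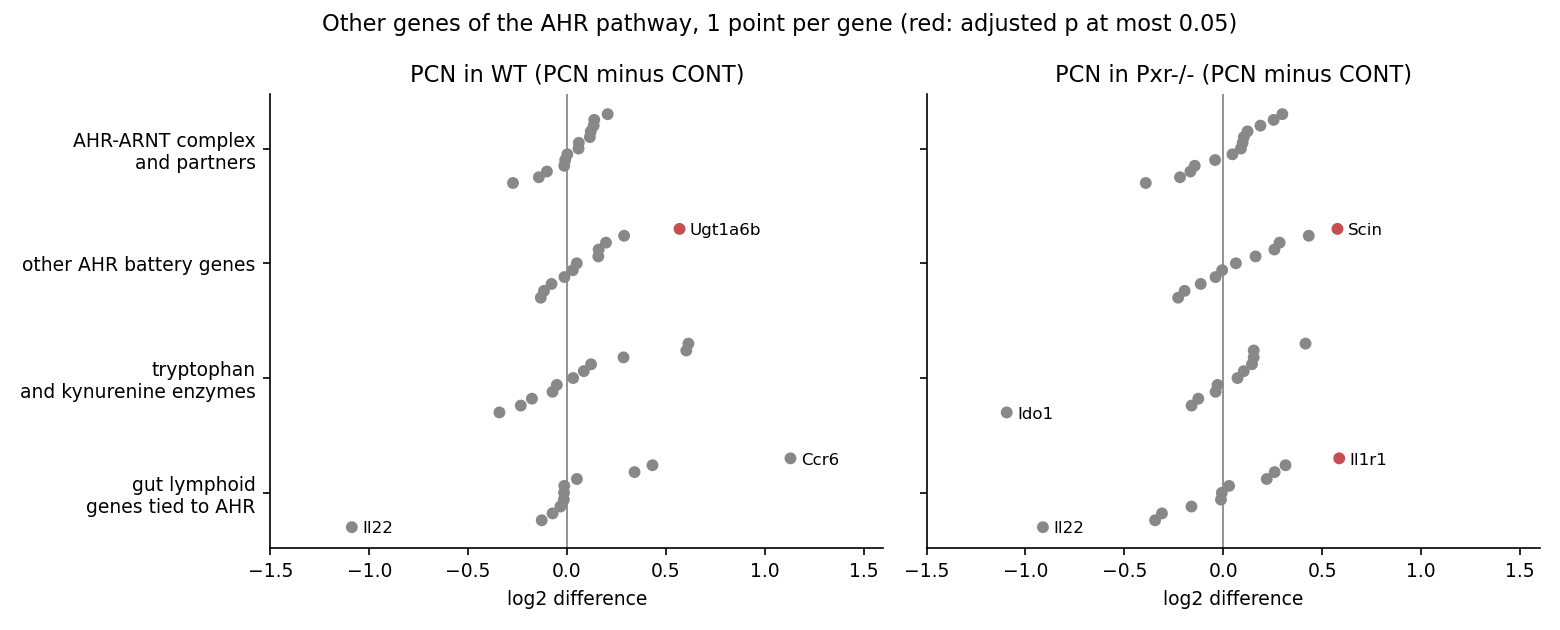
Log2 difference for PCN (x axis) of the tested genes of 4 wider AHR pathway lists (y axis) in WT and Pxr-/-, 1 point per gene; red marks an adjusted p of at most 0.05, and names are given to these and to genes beyond 0.9 in size. In WT the only red point is *Ugt1a6b* (0.57), and in Pxr-/- the red points are *Scin* (0.58) and *Il1r1* (0.59).

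The 11 tested enzymes of tryptophan and kynurenine metabolism had 6 higher in each genotype, with medians of 0.031 in WT and 0.072 in Pxr-/-. *Il4i1*, an oxidase that makes indole ligands of AHR, was at 0.61 ± 0.27 in WT (limma adjusted p = 0.36), with WT PCN arrays between 9.04 and 10.98. *Ccbl1* (now *Kyat1*), a kynurenine aminotransferase, was at 0.60 ± 0.16 in WT and 0.42 ± 0.15 in Pxr-/- (0.0622 and 0.123). *Ido1*, the interferon-inducible first enzyme of the kynurenine route, was named after its values had been seen: it was at -1.10 ± 0.33 in Pxr-/- (0.0614) and -0.073 ± 0.34 in WT, and its Pxr-/- PCN arrays spanned 10.09 to 13.00.

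The 11 tested gut lymphoid genes had 4 higher in WT and 5 in Pxr-/-, with medians of -0.015 and -0.0074. *Il1r1*, the interleukin 1 receptor, read 7.65, 8.41 and 8.83 in Pxr-/- CONT and 8.72, 8.98 and 9.04 in Pxr-/- PCN (lowest, median, highest), a rise of 0.59 ± 0.15 (limma adjusted p = 0.0309) that lay just above the fold threshold. *Il1r1* was called in 16 of the 23 fits that each left out 1 array, and not without Pxr-/- CONT replicate 1, 3 or 4 or Pxr-/- PCN replicate 1, 2, 4 or 5, with the smallest difference, 0.45, without Pxr-/- CONT replicate 4. In WT it was at 0.43 ± 0.16 (0.231). *Ccr6*, a chemokine receptor of B cells and of group 3 innate lymphoid cells, was at 1.13 ± 0.36 in WT (limma adjusted p = 0.152). WT PCN replicates 2 and 3 held a summed B cell marker signal of 13.4, against 10.3 to 12.1 on the other 21 arrays. Without replicates 2 and 3, a setting chosen after seeing the data, the WT difference was 0.20 for *Ccr6*, -0.044 for *Il4i1* and 0.51 for *Cyp1b1*. WT PCN replicate 2 also had the lowest *Cyp1b1* of its group (7.77), so leaving it out raises that difference. The part of B cells in these differences was not tested. *Il22*, the lymphoid cytokine that guards the gut epithelium, was detected on 16 of 23 arrays and was at -1.09 ± 0.53 in WT and -0.91 ± 0.51 in Pxr-/- (0.436 and 0.332). *Cd160*, a receptor of intraepithelial lymphocytes named after its values had been seen, was higher in Pxr-/- than in WT by 0.49 ± 0.10 without PCN and 0.46 ± 0.10 with PCN (limma adjusted p = 0.037 and 0.0439), in both cases under 1.5-fold. Over all 17727 tested genes, 15 higher and 43 lower passed the adjusted p without PCN, and 27 and 128 with PCN. Of the 4 T cell markers 3 were higher in Pxr-/- in both cases (medians 0.55 and 0.26), with 0 called. The part of T cells in the *Cd160* difference was not tested. With single arrays left out, the adjusted p of *Cd160* was at most 0.05 in 14 of 23 fits without PCN (up to 0.126) and in 7 of 23 with PCN (up to 0.140), and in 6 of 13 other settings for each.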

How the data were processed

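The authors scanned 1 single-colour (Cy3) array per ileum from 150 ng of RNA, and the deposited scanner files, written by Agilent Feature Extraction 10.10.1.1, hold spot intensity, which was not normalised. The authors also deposited a log2 table, filtered, corrected for wash batch and normalised by CrossNorm, which was used as an alternative. Here, the log2 of the median spot signal was taken, control and outlier spots were left out, spots of a probe were averaged and arrays were quantile normalised. Probes detected on at least 50% of the arrays of 1 group were kept, and a model with the 4 groups and the wash batch was fitted to all 23 arrays with limma 3.58.1 in R 4.3.3. The Benjamini-Hochberg adjustment ran over all 37591 probes. Promoter words were counted in RefSeq windows, and exon annotation of the probes was not analysed here. The script was tested on simulated data.

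Where a gene had several tested probes, the brightest on average gave its value. Of the wider lists, genes called in any contrast and the 2 with the largest difference per list for PCN in WT were named, and for each member the 3 genes with the highest correlation. Members, lists and markers were chosen with earlier results of these data known. Genotype, treatment and replicate number came from the sample labels. Other starting values, normalisations, background corrections, filters, batch terms and left-out arrays were tried. The number of arrays limits the precision.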

Additional observations from a re-analysis of the deposited data

Results flagged for a closer look

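*Cyp1b1* on Pxr-/- PCN replicate 1 read 8.72 (log2 signal), and the next highest array of its group read 8.10, a gap of 0.63 of the range of the group. In all, 28 combinations of probe and group were examined, and 1 stood apart in this way, which is no more than the rate of about 1 in 20 expected by chance. The summed B cell marker signal of this array was 12.06 against at most 11.16 on the other Pxr-/- PCN arrays. WT PCN replicates 2 and 3 had higher B cell sums, 13.42 and 13.41, but the lowest *Cyp1b1* values of their group, 7.77 and 7.998. The part of these cells in the value was not tested.

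The untested second *Ahr* probe read 51 in scanner units on WT PCN replicate 1, above the highest reading among the other arrays, 45. The *Cyp1a1* probe read 54.5 on WT PCN replicate 5, the only array on which it was detected, and at most 38 elsewhere. Both are single arrays of dim probes and were not tested.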

How the results depend on the processing

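No member was called under any alternative that kept the fold threshold. Without the fold threshold 2 members were called for PCN in Pxr-/- (*Ahr* and *Cyp1b1*) and 2 for PCN averaged over genotypes (*Ahrr* and *Cyp1b1*). The *Cyp1b1* difference in Pxr-/- ran from 0.38 to 0.58 with single arrays left out (adjusted p from 0.0146 to 0.0493) and from 0.37 to 0.67 over 13 other settings, of which 11 had an adjusted p of at most 0.05; the exceptions were the wash batches alone (0.581 and 0.118). The same replicate numbers did not pair the samples: 33 pairs correlated between -0.21 and 0.44, with 6 over 0.1. With the replicate number as a block, 0 members were called, and the adjusted p was 0.0438 for *Cyp1b1* in Pxr-/- (0.52), 0.0697 for *Ahr* in Pxr-/- and 0.0687 for *Ahrr* averaged over genotypes (-0.25).

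Differences near 0 turned sign, none of them past the threshold in either fit, and the cause was not tested. With arrays centred on their median, PCN in WT gave -0.041 for *Ahr* and -0.053 for *Arnt*, and the *Tiparp* interaction was 0.0039. With slide as a fixed block, *Arnt* in WT was -0.015, the *Ahrr* interaction 0.0049 and *Cyp1b1* between genotypes with PCN -0.050. The replicate block gave -0.011 for *Arnt* in WT and -0.0014 for *Cyp1b1* between genotypes with PCN, which was also -0.0017 with normexp, -0.0035 without a wash term and -0.0056 with slide as a random block. The probe A_55_P2814820 of *Arnt* gave -0.0084 for PCN in WT and -0.032 between genotypes with PCN. Wash batch 1 alone gave -0.096 for *Arnt* in WT, 0.036 for *Tiparp* in Pxr-/-, -0.083 and 0.072 for the *Cyp1b1* and *Tiparp* interactions, -0.22 for *Cyp1b1* between genotypes with PCN, -0.026 and 0.00054 for *Arnt* and *Tiparp* averaged over genotypes, and 0.092 for *Scin* in WT. Wash batch 2 alone gave -0.077 for *Ahr* in WT, 0.014 for *Arnt* between genotypes without PCN and -0.027 for *Tiparp* with PCN. Without WT PCN arrays 2 and 3, a setting chosen after seeing the data, *Tiparp* and *Il4i1* in WT were 0.017 and -0.044, and genotype with PCN gave -0.0040 for *Ahr*, -0.017 for *Arnt*, -0.11 for *Cyp1b1* and -0.016 for *Tiparp*.

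With single arrays left out, *Ahr* in WT ran from -0.018 to 0.047, *Arnt* in WT from -0.052 to 0.081, the interactions of *Cyp1b1* from -0.029 to 0.18 and of *Tiparp* from -0.077 to 0.077, genotype without PCN from -0.050 to 0.027 for *Arnt* and from -0.026 to 0.12 for *Tiparp*, and genotype with PCN from -0.14 to 0.065 for *Cyp1b1* and from -0.013 to 0.11 for *Tiparp*. *Ugt1a6b* in WT passed the fold threshold with the processed signal (0.58) and without WT PCN arrays 2 and 3 (0.59), and was called without WT PCN replicate 1 or 5 or WT CONT replicate 2 (0.59 to 0.63). *Ccbl1* in WT was called without Pxr-/- PCN replicate 5, WT PCN replicate 5 or WT CONT replicate 2 (0.61 to 0.70), and *Scin* in Pxr-/- without Pxr-/- CONT replicate 2 or Pxr-/- PCN replicate 3 or 6 (0.59 to 0.65). *Il1r1* in Pxr-/- was also not called in 7 other settings (0.50 to 0.68), the replicate block among them (adjusted p = 0.0646).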
